A study of Mus musculus with 4 samples.

Results

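Liver RNA from catalase knockout mice was compared with liver RNA from wild-type mice after both had eaten a high-fat diet. The comparison takes 2 of the 4 arrays of the study, chosen by their titles, and was read across all genes. Of 20886 genes named on the array, 14844 were well above background on at least 1 of the 2 arrays and could be described. All 4 groups were male mice fed from 29 to 40 weeks of age, which is 11 weeks of diet. The wild-type and knockout high-fat groups received 60.3% of their calories as fat, and the wild-type and knockout normal-diet groups received 18%. There was 1 array per group, so no difference below has a replicate check and no test could be made. The labels name neither the strain nor the part of the gene that was removed, and they do not say whether a sample was 1 liver or a pool.

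Catalase, encoded by Cat, converts hydrogen peroxide to water and oxygen and resides mainly in peroxisomes. Hepatocytes hold many peroxisomes, where the first step of very long chain fatty acid oxidation, urate oxidation and glycolate oxidation release hydrogen peroxide. Peroxiredoxins and glutathione peroxidases remove the same molecule in other compartments, and high-fat feeding of rodents is widely used to bring on fatty liver.

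A level below is the log2 of a gene's signal over the 75th percentile of its own array, and a difference is the knockout level minus the wild-type level on the same diet. The words rose, fell and changed are kept for genes that differed 2-fold or more. Where a gene was well above background on only 1 array, its size is a lower bound and is written as "at least". The error after ± is the scanner's error model for the spots and says nothing of the spread between animals; its median was 0.20 on the log2 scale. The number of arrays limits the precision. In whole liver, fewer cells of a type and less RNA per cell cannot be told apart. Where cyclic loess normalisation or normexp background correction took a named gene under 2-fold, its value under that setting is given beside it.

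Cat was measured first, as a check of the labels. Its brighter probe had a level of 4.89 in wild-type liver on normal diet and 4.75 after fat feeding. The corresponding knockout levels were 1.13 and 0.95. The difference on high-fat diet was -3.81 ± 0.20. A second Cat probe gave 3.67 in the wild type and -0.72 in the knockout, 20.9-fold lower. Both probes were still well above background in the knockout, and where they lie relative to the deleted part is not stated in the labels. The tissue label was checked with albumin: Alb, the main plasma protein made by hepatocytes, had levels of 9.39 (wild type) and 9.09 (knockout).

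Between the high-fat arrays 373 genes rose in the knockout, or 2.51% of those tested, and 236 fell, or 1.59%. In all 4.1% changed, and the counts for each list below are to be read beside these shares. Of the rises 120 rest on a lower bound, and of the falls 91 do. The median difference over the 13830 genes above background on both arrays was -0.04, and 90.2% of them lay within 1.5-fold. Above 0 lay 5956 of them, and below 0 lay 7874. Summed over all named genes, the knockout signal was 0.88 of the wild-type signal on high-fat diet and 0.98 on normal diet. Of the genes above background on both arrays, 178 kept their call under 75th percentile, median and quantile scaling and after normexp correction, 102 upward and 76 downward. The line cuts a continuous spread: 103 changed genes lay within 0.1 on the log2 scale inside it and 116 unchanged genes within 0.1 outside it. On normal diet 206 genes rose in the knockout (1.4%) and 368 fell (2.5%), so that 3.9% changed, with a median of -0.01. The split between rises and falls thus ran in opposite directions on the 2 diets, and that contrast was not tested. The median difference drifted with brightness, from 0.06 in a dim decile of genes to -0.17 in the brightest decile. Cyclic loess brought the brightest decile to -0.04, so a group's median is given below under cyclic loess or normexp as well where that setting moved it by over 1.5 times or turned its sign.

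**Figure D1:**
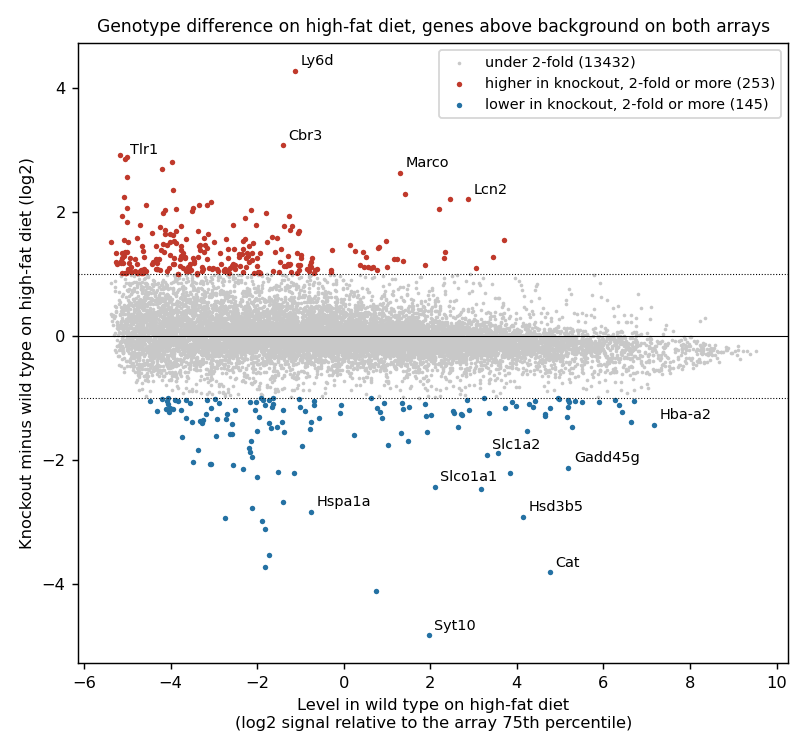
Each point is a gene well above background on both high-fat arrays. The horizontal axis is the level in wild type on high-fat diet (log2 signal over the array's 75th percentile). The vertical axis is the knockout minus wild-type difference (log2), so the wild-type value enters both axes. Of these genes 253 lay at 2-fold or more above 0 and 145 at 2-fold or more below, and 13432 lay between the lines. Cat sits at -3.81.

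Position on the slide was checked for the changed genes. Among genes measured by a single spot per probe and above background on both arrays, 8.57% of rises had a neighbouring spot that also rose, against 9.21% of all such genes, and 19.6% of falls had a neighbouring spot that fell, against 7.21%. For genes above background on 1 array these shares were 39% of rises against 14.3% of all, and 42.9% of falls against 10.4%. Genes described below that had such a neighbouring spot are named as such, and its part in their values was not tested.

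Genes that removed or made hydrogen peroxide were described next. Of 27 genes of enzymes that remove peroxide and superoxide none rose and 2 fell, namely Cat and Gpx6, and the median was -0.02 (0.05 under loess). The 7 glutathione peroxidases, 5 of them above 0, ran from -1.03 to 0.74 with a median of 0.43. The 6 peroxiredoxins, thiol peroxidases of cytosol, mitochondria and peroxisome, ran from -0.43 to 0.15. Prdx5, which is found in peroxisomes as well as mitochondria, had a level of 5.20 in the wild type and 5.10 in the knockout. Gpx1, the abundant cytosolic glutathione peroxidase, went from 8.43 to 8.27, and Gpx4, which reduces lipid hydroperoxides, from 5.71 to 6.04. Gpx6 was dim at -3.16 and -4.19, a difference of -1.03 ± 0.24 that was -0.69 after normexp correction, and a spot beside it on the slide was lower as well. The superoxide dismutases Sod1 and Sod2 differed by -0.22 and 0.05. Srxn1, the sulfiredoxin that restores over-oxidised peroxiredoxins, had the largest positive value of the list, from 3.14 to 3.96, and did not reach 2-fold.

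Among 31 measured genes of glutathione synthesis and of the NRF2 programme, the oxidant-responsive transcription factor Nfe2l2 and its targets, only Cbr3 rose and none fell. Cbr3, a carbonyl reductase, stood at -1.41 in the wild type and 1.66 in the knockout, a difference of 3.07 ± 0.20. On normal diet its difference was 0.77. Other targets gave smaller values: Nqo1, a quinone reductase, 0.85, the glutamate-cysteine ligase subunits Gclc and Gclm 0.18 and 0.05, and haem oxygenase Hmox1 -0.22. Nfe2l2 and its inhibitor Keap1 gave -0.05 and -0.12. The 6 enzymes that supply NADPH, the reductant for glutathione, had a median of 0.61, with Me1 at 0.89, Pgd at 0.85, Tkt at 0.74 and G6pdx at 0.48. On normal diet their median was 0.18 and 1 of them rose, and on each diet 5 of 6 lay above 0. Their summed knockout signal was 1.35 of the wild-type signal on high-fat diet and 1.33 on normal diet. None of the 21 measured glutathione S-transferases changed by the 2-fold rule. Their largest values were 0.94 for Gsta2 and 0.81 for Gstm3, and 1 transferase passed 2-fold under cyclic loess, quantile scaling and normexp correction.

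The oxidases that release hydrogen peroxide held 17 measured genes, and none changed (median -0.21). Urate oxidase, Uox, went from 7.81 to 7.60. Hao2, a hydroxyacid oxidase, differed by -0.95 on high-fat diet and was at least 5.92-fold higher on normal diet. Of 10 NADPH oxidase genes, which make superoxide, 1 rose and none fell (median 0.52, and 0.28 after normexp correction). The small GTPase of the phagocyte complex, Rac2, rose from -1.46 to -0.07, a difference of 1.39 ± 0.06, and Ncf4, Cyba and Cybb gave 0.87, 0.86 and 0.70. Nox4, the form made by many non-phagocytic cells, gave -0.46. Markers of macrophages moved with these subunits, as described further on, and their part in the values was not tested.

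Peroxisome assembly and peroxisomal lipid oxidation stayed near wild-type level in mRNA. The 14 peroxins, which import proteins and shape the organelle, ran from -0.32 to 0.46 with a median of -0.02 (0.04 under loess). None of 24 peroxisomal lipid enzymes and carriers changed, and they ran from -0.52 for Phyh, the phytanoyl-CoA hydroxylase, to 0.44 for Acot3. On normal diet 2 of the same 24 rose, Acot3 by 1.98 and Abcd2, at least 2.94-fold higher. Of 33 targets of PPARalpha, the fatty acid-sensing receptor, 1 rose and none fell on high-fat diet, against 8 rises on normal diet. Cyp4a14, a fatty acid omega-hydroxylase, gave -0.85 on high-fat diet and 2.98 on normal diet. Its levels on high-fat diet were 5.60 in the wild type and 4.75 in the knockout. Mitochondrial fatty acid oxidation, with ketogenesis, was represented by 25 genes and held no changed member, with 20 of 25 below 0 (median -0.08, loess 0.03). On normal diet their median was 0.20.

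On high-fat diet 7 of 33 genes of lipid droplets and steatosis rose and none fell, with 23 of the 32 above background on both arrays positive and 9 negative (median 0.32). On normal diet 8 rose and 2 fell (median 0.37). The summed signal of the CIDE and perilipin genes went from 241.7 to 282.6 on high-fat diet, and that of the uptake and transport genes from 284.8 to 260.7. Cidea, which drives fusion of lipid droplets, went from 2.20 to 4.23, a difference of 2.04 ± 0.20, and Cidec, its homologue, from 3.44 to 4.71. A second Cidec probe gave 1.62. The 7 also included Pnpla3, a lipid droplet acylhydrolase, at least 2.84-fold higher, and Lipe, the hormone-sensitive lipase, from -4.02 to -2.38. Lpl, the lipoprotein lipase, rose from -0.99 to 0.26, with 1.45 from its second probe. Anxa2, a phospholipid-binding protein, rose from 3.06 to 4.15. Mogat2, a monoacylglycerol acyltransferase, rose by 1.01, and this was 0.93 under loess and 0.61 after normexp correction. Pnpla3 gave 0.63 after normexp correction and 2.54 with its second probe. The perilipins Plin2 and Plin4, which coat droplets, gave 0.58 and 0.74, and the receptor Pparg gave 0.76.

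Cidea and Cidec were also higher on normal diet, by 5.03 and 2.63, whereas Lpl was lower there by 1.27 on the log2 scale. Of the 29 genes that make fatty acids and triglycerides, 1 rose and 1 fell. Scd2, a stearoyl-CoA desaturase, rose from -1.60 to -0.25. Lpin1, a phosphatidate phosphatase, fell from 3.98 to 2.84, and its second probe gave -1.49. Scd1 gave 0.67, Fasn 0.30 and Acaca 0.47. None of 33 cholesterol genes changed, although 26 of 33 lay below 0 (median -0.28, loess -0.19), among them Idi1 at -0.64 and Sqle at -0.58. The 16 apolipoproteins also held no changed gene (median -0.26, loess -0.09), with Apoa4 highest at 0.56.

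Macrophage genes held more rises than any other list described here. Of 38 measured genes of monocytes and lipid-associated macrophages, 16 rose and none fell on high-fat diet, and 33 of the 37 above background on both arrays were positive (median 0.85). On normal diet 0 of the list rose and 2 fell (median -0.15). The list was drawn up with earlier results of these arrays known, so its count is a description. Trem2, a lipid receptor of macrophages in fatty liver, went from -1.78 to -0.26. Itgax, the integrin CD11c, went from -3.35 to -1.25, and Gpnmb, a glycoprotein of lipid-laden macrophages, was at least 9.41-fold higher. Ms4a7, a membrane protein of recruited macrophages, rose from -2.14 to -0.11. Their differences on normal diet were -0.14 for Trem2, -0.37 for Itgax and -0.35 for Ms4a7, and Gpnmb was not well above background there.

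Other members of the block covered lysosomal, adhesion and secreted products. Lgals3, the galactose-binding lectin galectin-3, went from 0.81 to 2.23, Cd63 of late endosomes from 1.24 to 2.48, and Lyz2, the macrophage lysozyme, from -1.09 to 0.24. Chil3, a chitinase-like protein, rose by 1.70 ± 0.24 and Itgb2, the common beta chain of leukocyte integrins, by 1.33. The fractalkine receptor Cx3cr1 rose from -3.32 to -1.86, a difference of 1.46 that was 1.00 after normexp correction, with 1.29 from its second probe. Ms4a6c, of the same family as Ms4a7, passed 2-fold but gave 0.87 after normexp correction. Members under the line included Csf1r, the receptor for macrophage colony-stimulating factor, at 0.61, Mpeg1, the pore-forming perforin-2, at 0.77, and Acp5 at 0.00. Summed over its bright and dim members, the lipid-associated section of the list went from 628.5 to 558.7 times the 75th percentile. That is a ratio of 0.89, near the 0.88 over all genes, although the section's median difference was 0.95. The sum of the monocyte genes went from 146.7 to 153.8, a ratio of 1.05. Bright members weigh most in both sums. The lipid-associated section holds Apoe, an apolipoprotein, and the monocyte section holds Fn1, which is also in the matrix list. Neither sum is therefore a measure of macrophages or monocytes.

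Kupffer cells are the resident macrophages of the liver sinusoid. Of their 18 measured markers 4 rose, none fell, and 17 of 18 were positive (median 0.51). Marco, a scavenger receptor for bacteria and particles, had a level of 1.31 in the wild type and 3.94 in the knockout, a difference of 2.63 ± 0.20. On normal diet Marco fell by 1.18 on the log2 scale. Adgre1, which encodes F4/80, rose from 0.16 to 1.61, and by 1.49 with its second probe. Spic, a transcription factor of iron-handling macrophages, rose by 1.44 and C1qb, a complement C1q chain, by 1.06. The markers most restricted to resident Kupffer cells stayed under 2-fold: 0.10 for Clec4f, 0.39 for Vsig4 and, just short of the line, 0.97 for Timd4. Summed over the list, the signal went from 94.3 to 134.3 times the 75th percentile on high-fat diet and from 79.59 to 76.76 on normal diet.

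**Figure D2:**
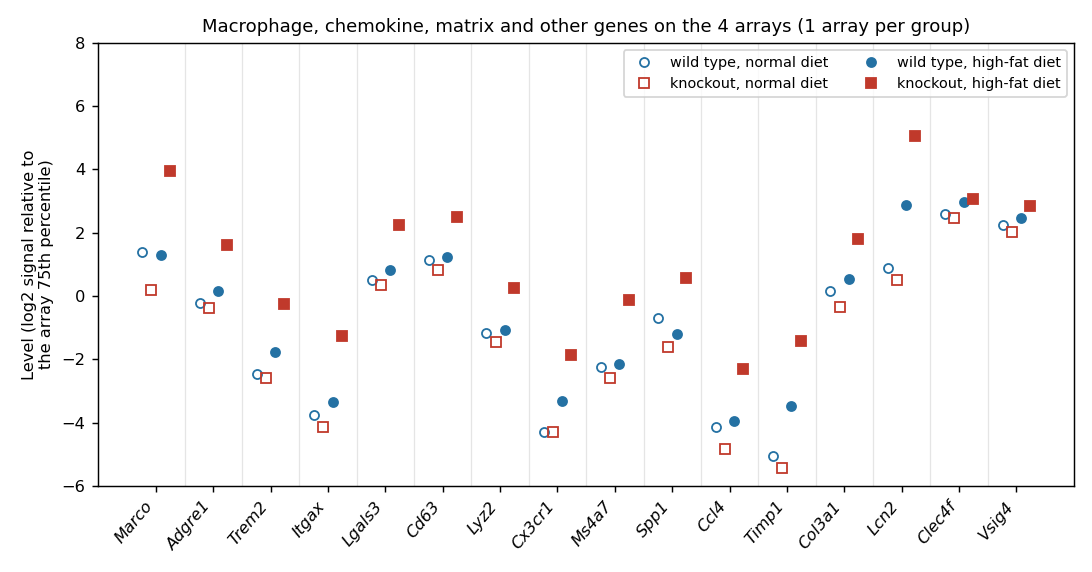
Levels (log2 signal over the array's 75th percentile) of 16 genes on each of the 4 arrays, 1 point per array with no error bar between animals. For Marco, Itgax and Trem2 the knockout high-fat array is the highest of the 4, whereas Clec4f runs from 2.46 to 3.06 and Vsig4 from 2.01 to 2.85.

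Antigen presentation, granulocyte and lymphocyte genes were examined beside the macrophage genes. Of 20 measured genes of MHC class II and dendritic cells, 2 rose and none fell, and 17 of 19 were positive (median 0.85, and 0.46 after normexp correction; -0.28 on normal diet). H2-Aa, a class II alpha chain, went from -0.99 to 0.30, while H2-Ab1 and H2-Eb1 gave 0.85 and 0.96. Batf3, a factor of cross-presenting dendritic cells, rose by 1.16, which was 0.79 after normexp correction. A spot beside it rose as well. Of 13 neutrophil markers 5 rose. The calgranulins S100a8 and S100a9 went from -1.28 to 0.00 and from 0.44 to 1.79, differences of 1.28 and 1.36, and Lcn2, a siderophore-binding lipocalin that hepatocytes also make, from 2.87 to 5.07. A spot beside the Lcn2 probe rose as well. Mpo and Ltf, granule proteins, were at least 3.61-fold and 3.23-fold higher, and 0.76 and 0.81 after normexp correction. The summed neutrophil signal went from 76.63 to 102.5 on high-fat diet, a gain about as large as that of Lcn2 alone. The sum is therefore not a measure of neutrophils. Ly6g, Mmp8 and Mmp9 were not well above background on either array.

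T and NK cell genes held no changed member among 19 measured (median 0.06, 0.02 under loess and -0.04 after normexp correction), and Trac and Cd8a were not well above background on either array. Ccl5, a chemokine of T cells and macrophages, was their highest at 0.88. Of 11 B and plasma cell genes 1 rose and 2 fell. Cd79b, of the B cell receptor, rose by 1.04 ± 0.21, and this was 0.99 under loess and 0.67 after normexp correction. Jchain, which links antibody chains in plasma cells, fell by 1.38 on the log2 scale, and gave -0.98 after normexp correction. The other fall, Derl3, is described with the chaperones. Ear2, an eosinophil-type ribonuclease also made by macrophages, rose from -0.26 to 1.12.

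Chemokines and their receptors rose in 6 of 30 measured genes, with none falling (median 0.40, and 0.21 after normexp correction). On normal diet 0 rose and 4 fell. Cxcl13, which draws B cells, went from -3.95 to -1.60, a difference of 2.35 ± 0.25. The CC chemokines Ccl3, Ccl4 and Ccl7 rose by 1.54, 1.63 and 1.57, and Cxcl5 was at least 2.52-fold higher. The last 4 lie near the background, and normexp correction put Ccl3 at 0.56, Ccl4 at 0.90, Ccl7 at 0.72 and Cxcl5 at 0.70, so that 1 of the 6 rises remained above 2-fold. Ccl2, which draws monocytes, gave 0.93 on high-fat diet and -2.22 on normal diet. Cxcl1, a neutrophil chemokine, gave -0.88 and -2.77.

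Among 28 cytokine, cytokine receptor and adhesion genes, 3 rose and none fell. Icam1, an endothelial and leukocyte adhesion molecule, rose by 1.46, Il2rg, the common cytokine receptor chain, by 1.34 and Tgfb2, a profibrotic cytokine, by 1.11. After normexp correction these were 0.80, 0.83 and 0.31. Il1b gave 0.85, and Tnf was well above background on only 1 array, without a bound above 2-fold. Of 30 toll-like receptor and NF-kB genes, 5 rose and 1 fell. Tlr1, which senses lipopeptides together with TLR2, rose from -5.05 to -2.20, and Tlr2 itself rose by 1.13 ± 0.07, which was 0.90 after normexp correction. Cd14, the lipopolysaccharide co-receptor, rose from -1.28 to -0.13 and Irak3, a brake on the same pathway, from -3.65 to -2.09. Relb gave 1.02, but 0.97 under loess and -0.12 with its second probe. Tlr8 was at least 2.63-fold lower (-0.51 after normexp correction), beside another spot that fell. Tlr4 gave 0.27.

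The interferon response was a contrast to these lists. Of 37 measured genes 1 rose, or 2.70% beside 2.51% of all genes tested, and none fell. The median was 0.04 (0.07 under loess, 0.02 after normexp correction). Ubd, a ubiquitin-like protein also induced by TNF, went from -1.39 to 0.38. Isg15 and Rsad2, classical interferon targets, gave -0.81 and -0.61. Acute phase proteins, which hepatocytes make under IL-6, held 2 rises and 1 fall among 27. Orm3 rose from 0.98 to 2.51 and Lcn2 is given above, while Socs3, the feedback inhibitor of STAT3, fell from 2.53 to 1.31. Serum amyloids Saa1 and Saa2 gave 0.97 and 0.86, and 4 acute phase genes rose under quantile scaling.

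Genes of collagen, matrix and hepatic stellate cells, the vitamin A-storing cells that make scar tissue, were mostly positive. Of 60 measured, 5 rose and none fell, and 48 of 59 lay above 0 (median 0.39; -0.09 on normal diet). Col1a2 and Col3a1, chains of fibrillar collagens, went from 1.17 to 2.40 and from 0.52 to 1.79. Timp1, an inhibitor of matrix metalloproteinases, went from -3.48 to -1.43, a difference of 2.06 ± 0.22. Mmp13, a collagenase, was at least 2.08-fold higher and Cnn1, a smooth muscle protein, rose by 1.37, though normexp correction left 0.43 and 0.58. Col1a1 and Acta2, the actin of activated stellate cells, both gave 0.98, short of 2-fold. Markers of quiescent stellate cells were nearer to 0, with Lrat at 0.23, Reln at -0.10 and Des at 0.41. The summed signal of the whole list went from 322.6 to 340.1.

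Bile duct and keratin genes held 4 rises and 1 fall among 20. Spp1, osteopontin, which ducts and macrophages share, went from -1.20 to 0.57. Sprr1a, an epithelial envelope protein, went from -1.26 to 0.67. Ly6d, a GPI-anchored antigen of epithelia and B cell precursors, had the largest rise among genes above background on both arrays, from -1.12 to 3.15, a difference of 4.27 ± 0.20 (1.85 on normal diet). Tspan8 rose by 1.33 ± 0.32, which was 0.32 after normexp correction, and a spot beside it rose as well. Tff3, a mucosal trefoil peptide, fell by 1.06 on the log2 scale, which was -0.79 after normexp correction, and on normal diet it fell by 3.20. The ductal keratin Krt19 gave 0.28, Sox9 gave -0.49, and Krt7 and Epcam were not well above background.

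Endothelial genes held 1 rise among 35, or 2.86%, near the 2.51% of all genes tested (median 0.20). Cd34 rose by 1.28, but its second probe gave -0.03. The sinusoidal markers Stab2 and Clec4g gave 0.35 and 0.10. Of 38 measured cell cycle genes 1 rose, or 2.63%, also near the share of all genes. It was Top2a, at least 2.15-fold higher and 0.38 after normexp correction. Still, 28 of the 33 above background on both arrays were positive (median 0.38, and 0.23 after normexp correction), including Mki67 at 0.70 and Mcm5 at 0.84. None of 29 genes of p53, growth arrest and cell death changed (median 0.02, 0.07 under both settings).

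**Figure D3:**
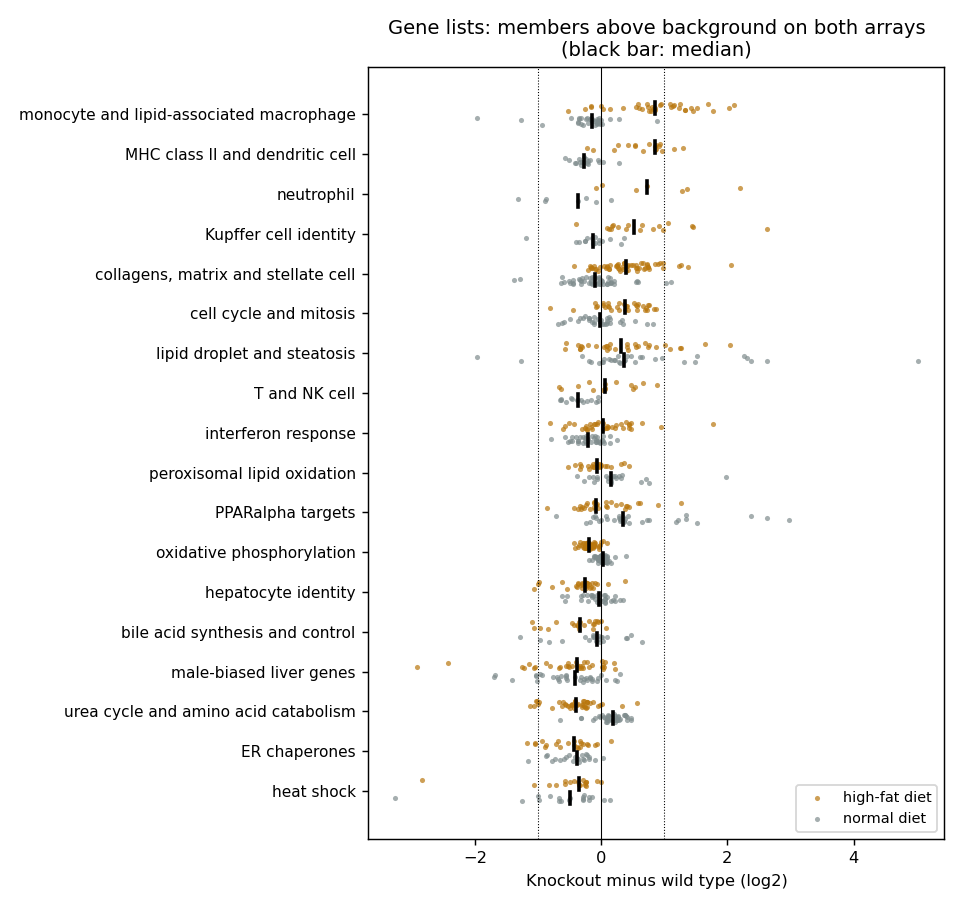
Knockout minus wild-type differences (log2) for the genes of 18 lists, on high-fat diet in orange and on normal diet in grey, with 1 point per gene above background on both arrays and a black bar at the list's median. The monocyte and lipid-associated macrophage genes sit around 0.85 on high-fat diet and -0.15 on normal diet, and the urea cycle and amino acid genes around -0.40 and 0.19.

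Genes of hepatocyte function were, on balance, lower in the knockout on high-fat diet. Of 31 hepatocyte identity genes 2 fell and 29 of 31 lay below 0, where 7874 of 13830 did over all genes. Their median was -0.25 (-0.03 on normal diet), but cyclic loess moved it to -0.11 and left no fall. The summed signal of the list went from 5317 to 4373, a ratio of 0.82 beside 0.88 over all genes. The transcription factors Hnf4a and Cebpa gave -0.36 and -0.24, and Foxa3 gave -0.99. Markers of macrophages and matrix moved the other way on the same array, and their part in the hepatocyte values was not tested. Red cell globins were lower too, Hba-a1 from 5.27 to 3.80 and Hbb-bt by 1.30 on the log2 scale, and the red cell list summed to 224.2 in the wild type and 89.9 in the knockout, against 108.3 and 124.5 on normal diet. The wild-type high-fat array was thus the highest of the 4 in globin signal, and the part of blood in other differences was not tested.

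Genes of nitrogen metabolism lay mostly on the low side. Of 42 measured genes of the urea cycle and of amino acid catabolism, 5 fell, none rose and 39 of 42 lay below 0 (median -0.40, loess -0.25), whereas on normal diet none changed and the median was 0.19. Cps1, which makes carbamoyl phosphate from ammonia, went from 4.94 to 3.93, and all 10 urea cycle genes were negative. Agxt, the peroxisomal alanine-glyoxylate aminotransferase, went from 6.35 to 5.23, a difference of -1.12 ± 0.20. Oat, ornithine aminotransferase, went from 6.26 to 5.22, and Tat, tyrosine aminotransferase, from 5.91 to 4.84. Cth, which makes cysteine from cystathionine, went from 4.97 to 3.96, with -0.98 from its second probe and another lower spot beside it.

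All 5 of these falls stand close to the 2-fold line. Under cyclic loess Cps1 was -0.90, Agxt -0.98, Oat -0.91, Tat -0.94 and Cth -0.90, so that none of the 42 genes reached 2-fold. After normexp correction Cps1 was -0.98 and Tat -0.99. Got1, which makes aspartate, was just outside the line at -0.98, and Hpd and Cbs gave -0.78 and -0.60. The 54 genes of oxidative phosphorylation, also bright, ran from -0.42 to 0.09 with a median of -0.19, or -0.05 under loess. The 44 ribosomal protein genes had a median of -0.12, which turned to 0.02 under loess.

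Zonated hepatocyte genes held 5 falls and no rise among 48, in both zones (median -0.31, loess -0.13). Slc1a2, a glutamate transporter of pericentral hepatocytes, fell from 3.31 to 1.40 and by 1.63 on the log2 scale with its second probe. Etnppl, a phospholyase of periportal hepatocytes, fell from 3.72 to 2.56. Oat, Cps1 and Agxt complete the 5. Glul and Cyp2e1, the best known pericentral markers, gave -0.12 and -0.37, and periportal Cyp2f2 gave 0.03.

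Bile acid and drug handling genes followed. Of 22 genes of bile acid synthesis and its control 2 fell and 21 lay below 0 (median -0.34, loess -0.22). Cyp39a1, an oxysterol hydroxylase, went from 1.88 to 0.79. Cyp7b1, of the alternative synthesis pathway, went from 5.21 to 4.14, a difference of -1.06 that was -0.94 under loess. Cyp7a1, the rate-limiting enzyme of the classic pathway, went from 1.96 to 0.98, just short of 2-fold, and Cyp8b1 gave -0.09. Among 23 transporters of bile acids and organic anions 4 fell and none rose. Slco1a1, a male-predominant uptake carrier, went from 2.11 to -0.32, a difference of -2.43 ± 0.20 (-1.02 on normal diet). Slc22a7, an organic anion transporter, went from 3.56 to 1.68, and Slco1a4 from 0.85 to -0.38. Abcb11, the bile salt export pump, went from 5.50 to 4.43, which was -0.95 under loess and after normexp correction. Slc10a1, the main bile acid uptake carrier, gave -0.20, and Abcc4, a basolateral exporter, gave 0.98.

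Sulfotransferases were low as a group: all 8 above background on both arrays were negative (median -0.69, loess -0.66; 0.27 on normal diet). Sult2a8 went from 6.44 to 5.21 and Sult1a1 from 6.41 to 5.54, and Sult1e1, the oestrogen sulfotransferase, fell by 1.03 on the log2 scale, which was -0.71 after normexp correction. The 13 glucuronosyltransferase genes had a median of -0.04 (0.08 under loess) and no changed member. Of 68 cytochrome P450 and nuclear receptor genes 3 fell and none rose (median -0.21, loess -0.12), against 7 rises on normal diet. Cyp4f14, a leukotriene and fatty acid hydroxylase, went from 5.15 to 3.84, and Cyp2a22 fell by 1.39 on the log2 scale, or -0.77 after normexp correction. The Cyp2c enzymes stayed under 2-fold, with Cyp2c54 at -0.92, Cyp2c37 at -0.89, Cyp2c39 at -0.88 and Cyp2c29 at -0.74. Cyp2b10, a target of the receptor CAR, gave 0.36, where on normal diet it gave 4.09.

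Liver genes that differ between the sexes under pituitary growth hormone were read in these male livers. Of 36 measured male-biased genes 8 fell and none rose on high-fat diet (median -0.39; 7 fell on normal diet, median -0.41). Hsd3b5, a male-specific steroid dehydrogenase, had levels of 4.15 in the wild type and 1.23 in the knockout, a difference of -2.91 ± 0.20. The others were Slco1a1, Cyp7b1, Sult2a8, C8b, Susd4 at -1.25, Egfr at -1.05 and Moxd1, at least 4.23-fold lower. Egfr was -0.96 under loess, just under 2-fold after normexp correction and -0.67 with its second probe. Of 28 female-biased genes 1 rose and 3 fell (median 0.25, and 0.06 after normexp correction), where on normal diet 15 rose (median 0.84). Hamp2, a hepcidin, had a level of 4.27 in the wild type and 3.17 in the knockout, and rose by 3.68 on normal diet; its fall was -0.99 after normexp correction. Among 15 genes of growth hormone signalling, Socs1 fell from -1.52 to -3.72 and Socs3 fell as given above. Socs2, a direct growth hormone target, gave -0.81 and Igf1 gave -0.56.

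Genes of glucose and glycogen held 1 rise and 4 falls among 45 (median -0.11, loess -0.01, quantile scaling 0.02). Ppp1r3c, a glycogen-targeting subunit of protein phosphatase 1, went from 1.92 to 0.37, a difference of -1.55 ± 0.20 (0.00 on normal diet). Pfkfb3, a regulator of glycolysis, went from 2.64 to 1.17, with -0.99 from its second probe and another lower spot beside it. Igfbp1, an insulin-repressed binding protein, went from 4.77 to 3.61, and fell by 2.42 on normal diet. Hk2, a hexokinase of muscle and fat, rose by 1.29, or 0.82 after normexp correction. The gluconeogenic enzymes Pck1 and G6pc gave -0.55 and -0.62.

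Among 33 hepatokines and other secreted factors, Fst, follistatin, rose by 1.02 (0.98 under loess, 0.82 after normexp correction), and Igfbp1, Egfr and Enho fell. Enho, which encodes adropin, went from 1.89 to 0.60, and fell by 1.44 with its second probe and by 2.00 on normal diet. Fgf21 gave 0.90 and Gdf15 gave 0.82. Of 23 complement genes 1 fell (4.35%, beside 1.59% of all genes tested), C8b, from 4.38 to 3.23. Of 38 coagulation and protease inhibitor genes, Plat was at least 2.02-fold higher (0.35 after normexp correction) and Serpinb1a, an inhibitor of neutrophil proteases, fell from 0.88 to -0.44, where on normal diet it rose by 1.32. Of 33 iron and metal genes Lcn2 rose and Hamp2 fell, and the hormone Hamp and the metallothioneins Mt1 and Mt2 gave -0.61, -0.61 and -0.83.

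Chaperones of the endoplasmic reticulum were lower in the knockout. They fold secreted proteins, and many are induced together by the unfolded protein response through ATF6 and XBP1, which can bind the ER stress response element (ERSE). Of 23 measured genes 3 fell, none rose and 22 of 23 lay below 0 (median -0.42, loess -0.35). The median on normal diet was -0.39, where 1 fell. Promoter windows of 250 bases before the RefSeq gene start (build GRCm38.p6) were searched on both strands for the ERSE (CCAAT, 9 bases of any kind, CCACG) and for ERSE-II (ATTGG, 1 base of any kind, CCACG), and 19 of the 23 genes had a window. The ERSE occurred in 8 of 19 (42.1%), namely Calr, Canx, Creld2, Derl3, Dnajc3, Hsp90b1, Hspa5 and Pdia6, and ERSE-II in Herpud1. Over all 27025 windows the ERSE occurred in 33 (0.122%) and ERSE-II in 9 (0.0333%), and over the 11817 tested genes with a window the ERSE occurred in 18 (0.152%). The windows of the 3 genes that fell, of Hsp90b1 with 2 matches and of Herpud1 with the other element are shown 5′ to 3′ on the gene's strand, with the match in capitals. They lie at chr2:34771840-34772089 (plus strand) for Hspa5, chr15:88819396-88819645 (plus) for Creld2, chr10:75893148-75893397 (plus) for Derl3, chr10:86705445-86705694 (minus) for Hsp90b1 and chr8:94386179-94386428 (plus) for Herpud1.
Hspa5: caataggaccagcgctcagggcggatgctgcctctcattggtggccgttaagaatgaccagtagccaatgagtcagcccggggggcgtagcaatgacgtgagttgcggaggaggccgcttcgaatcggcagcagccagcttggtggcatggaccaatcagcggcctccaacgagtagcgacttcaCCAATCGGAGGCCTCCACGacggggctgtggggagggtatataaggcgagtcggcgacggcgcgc
Creld2: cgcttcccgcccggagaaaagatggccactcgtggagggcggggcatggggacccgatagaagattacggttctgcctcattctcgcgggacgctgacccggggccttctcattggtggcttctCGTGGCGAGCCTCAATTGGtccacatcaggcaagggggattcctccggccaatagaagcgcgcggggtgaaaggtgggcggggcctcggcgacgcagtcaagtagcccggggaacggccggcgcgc
Derl3: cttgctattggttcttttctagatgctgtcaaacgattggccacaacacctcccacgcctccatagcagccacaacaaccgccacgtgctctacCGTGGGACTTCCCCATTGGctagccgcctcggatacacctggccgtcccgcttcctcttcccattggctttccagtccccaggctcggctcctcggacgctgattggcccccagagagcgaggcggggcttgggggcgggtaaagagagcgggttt
Hsp90b1: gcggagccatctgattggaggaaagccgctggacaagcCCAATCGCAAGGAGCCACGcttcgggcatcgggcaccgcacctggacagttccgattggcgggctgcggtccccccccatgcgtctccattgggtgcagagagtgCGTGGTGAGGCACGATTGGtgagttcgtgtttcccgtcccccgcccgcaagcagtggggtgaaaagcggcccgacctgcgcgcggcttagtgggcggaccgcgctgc
Herpud1: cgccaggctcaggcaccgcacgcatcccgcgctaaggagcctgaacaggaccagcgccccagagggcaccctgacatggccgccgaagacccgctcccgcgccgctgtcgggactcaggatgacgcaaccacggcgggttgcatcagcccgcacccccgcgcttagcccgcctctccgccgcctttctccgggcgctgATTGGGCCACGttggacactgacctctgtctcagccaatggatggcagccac
The first base of the match lay 65 bases before the start in Hspa5, 126 in Creld2, 156 in Derl3, 212 and 107 in Hsp90b1 and 52 in Herpud1. A match describes these letters and is not a measured binding site. The share of windows with the element describes the list of ER genes, whether they fell or not. The part of the element in the differences was not tested.

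Of the genes with the element in their window, Hspa5, the main luminal chaperone BiP, had a level of 6.70 in the wild type and 5.65 in the knockout, a difference of -1.05 ± 0.20 (-0.91 under loess). Creld2, an ER stress-inducible disulfide isomerase, went from 5.35 to 4.30, a difference of -1.05 ± 0.07 (-0.95 under loess). Derl3, of ER-associated degradation, went from 1.36 to 0.18 and stayed past 2-fold under both settings. Hsp90b1, with 2 matches, gave -0.42, Calr -0.34, Canx -0.36, Pdia6 -0.22 and Dnajc3 -0.06. Herpud1 gave -0.88, and Dnajb9 and Pdia3 gave -0.93 and -0.89. On normal diet Hspa5 gave -0.65, Creld2 -1.16, Derl3 -0.78 and Herpud1 -0.28. The sensor Ern1 gave 0.16 and Xbp1 gave -0.32. Of 21 ATF4 targets, the other arm of the response, 1 rose and 1 fell (median 0.06, loess 0.12). Psat1, of serine synthesis, rose by 1.65 and by 1.35 with its second probe (0.81 after normexp correction), Cth fell as given above, and Ddit3 gave -0.96.

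**Figure D4:**
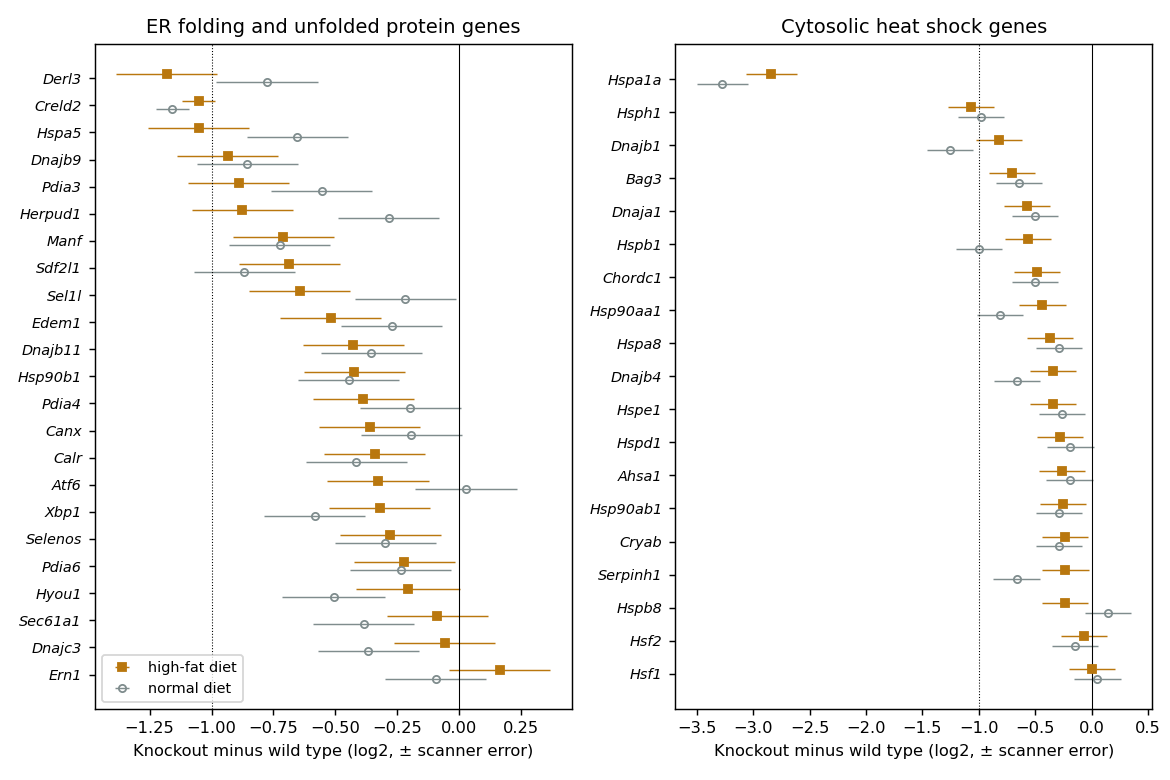
Knockout minus wild-type difference (log2) of each ER folding gene (left) and each cytosolic heat shock gene (right), on high-fat diet as filled squares and on normal diet as open circles, with the scanner error as the bar and a dotted line at 2-fold. On high-fat diet Hspa5, Creld2 and Derl3 pass 2-fold on the left and Ern1 is the only one of the 23 above 0, while Hspa1a at -2.84 and Hsph1 at -1.07 pass it on the right.

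Cytosolic heat shock genes and immediate early genes, which respond within minutes to stress and to handling of tissue, were also read. Of 19 heat shock genes 2 fell and 18 of 19 lay below 0 (median -0.35, loess -0.24; -0.50 on normal diet). Hspa1a, an inducible HSP70, went from -0.75 to -3.59, a difference of -2.84 ± 0.22, and fell by 3.27 on normal diet. Hsph1, its nucleotide exchange factor, fell by 1.07 on the log2 scale, and was -0.99 under loess and after normexp correction. Of 29 immediate early genes 3 fell and none rose (median -0.11), against 7 falls on normal diet (median -0.58). Egr1 went from 1.01 to -0.75, Nr4a2 fell by 1.20 on the log2 scale and Gadd45g went from 5.19 to 3.06. Fos, Jun and Dusp1 gave -0.43, -0.35 and -0.47. How the liver was taken is not stated in the labels, and its part in these values was not tested. Of 22 clock genes 1 fell (4.5%, beside 1.59% of all genes tested). It was Ciart, by 1.11 on the log2 scale (-0.89 after normexp correction), where on normal diet it rose by 1.37.

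The largest single differences lay partly outside these lists. After Ly6d and Cbr3 came Sdcbp2, a PDZ adaptor, from -5.17 to -2.25, and Myoc, myocilin, from -5.02 to -2.13, beside another spot that rose. Plcd3, a phospholipase C, rose from -3.96 to -1.16 and by 2.85 with its second probe (2.06 on normal diet). Nrg1, a ligand of ErbB receptors, rose from -4.19 to -1.51 and gave -0.56 on normal diet. Ttc39a rose by 2.16 and by 2.47 with its second probe, while Slc35f2 rose by 2.10 on high-fat diet and by 2.20 on normal diet. Asb2, a subunit of a ubiquitin ligase, rose by 2.11. Prcd and Chmp4b rose by 2.56 and 2.28, but their second probes gave 0.34 and 0.63, and Prcd lay beside another spot that rose. The largest bounds were Usp49 at 12.0-fold, Npas3 at 10.1-fold, Ankrd36 at 9.76-fold and Olfr267 at 9.74-fold, all as "at least" and all beside a spot that also rose. The second probes of Npas3 and Ankrd36 gave -0.34 and 0.62.

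Among the falls Syt10, a synaptotagmin, had the largest difference, from 1.96 to -2.86, or -4.82 ± 0.21, a 28.3-fold lower signal. On normal diet it fell by 1.55. Tmem254a, a small membrane protein, went from 3.17 to 0.70 and gave -1.79 on normal diet, and Jmjd7, a protein hydroxylase, gave -2.67 on high-fat and -3.01 on normal diet. Fthl17a, a ferritin-like gene, and Sertad3 fell as well, with differences of -3.72 and -2.28. For Dnm1, Map1a and Bst1 the differences of -4.12, -3.53 and -2.98 were not shared by the second probes, which gave -0.07, -0.37 and -0.44. Fam205a2 gave -3.11, with -1.40 from its second probe. Map1a, Bst1 and Fancg, which fell by 2.78, each lay beside another spot that fell. The largest lower bounds were Galnt16 at 14.5-fold, Defb23 at 13.4-fold, Sval1 at 13.4-fold, Tcl1b5 at 12.0-fold and Map3k19 at 11.8-fold lower, again beside spots that fell, and the second probes of Tcl1b5 and Map3k19 gave 0.27 and -0.33.

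Calls shared by both diets were counted next. Genes that rose in the knockout on both diets numbered 27, which is 7.24% of the rises on high-fat diet and 13.1% of those on normal diet. Over all genes tested on normal diet 1.4% rose. They include Cidea, Cidec, Ly6d, Plcd3, Slc35f2 and Mpo. Genes that fell on both numbered 48, or 20.3% of the falls on high-fat diet and 13% of those on normal diet. Over all genes tested on normal diet 2.5% fell. Besides Cat they include Hsd3b5, Slco1a1, Hspa1a, Egr1, Socs1, Socs3, Gadd45g, Igfbp1, Enho, Egfr, Creld2, Pfkfb3, Tff3, C8b, Syt10, Jmjd7 and Tmem254a. A further 14 rose on high-fat and fell on normal diet, or 3.75% of the rises on high-fat diet, beside the 2.5% of all genes. In reverse, 15 fell on high-fat and rose on normal diet, or 6.36% of the falls on high-fat diet, beside the 1.4% of all genes. These comparisons share no array.

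**Figure D5:**
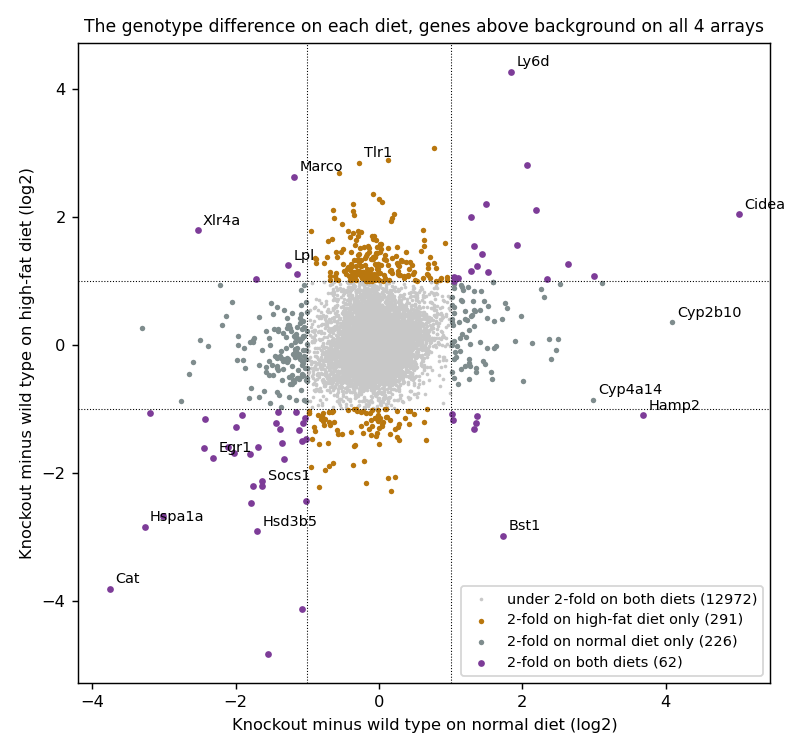
Knockout minus wild-type difference (log2) on normal diet (horizontal) against high-fat diet (vertical) for 13551 genes above background on all 4 arrays, with lines at 2-fold. Of these 291 passed 2-fold on high-fat diet only, 226 on normal diet only and 62 on both, and Cat lies at about the same value on both axes.

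Wide gaps between the 2 diets were taken from genes above background on all 4 arrays. Marco gave 2.63 on high-fat diet and -1.18 on normal diet, and Xlr4a, an X-linked lymphocyte-regulated gene, gave 1.79 and -2.53. Ccl2, Cib3 and Syt9 gave 0.93, 1.03 and 0.27 on high-fat diet against -2.22, -1.72 and -3.31 on normal diet, with Cib3 at 0.90 on high-fat diet after normexp correction. In the other direction Hamp2 gave -1.10 and 3.68, Cyp4a14 -0.85 and 2.98, Cyp2b10 0.36 and 4.09, Cidea 2.04 and 5.03, and Bst1 -2.98 and 1.73. None of these gaps could be tested with 1 array per group.

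Genes next to Cat on chromosome 2 were read because a knockout line can carry a stretch of another strain's DNA around the deleted gene. Of the 15 genes on each side in RefSeq order, 29 were on the array and 4 changed on high-fat diet, all downward. Rag1, Rag2 and Fjx1 were among the 29 but were not well above background on either high-fat array. Over all tested genes 4.1% changed and 1.59% fell. Slc1a2 is given above and gave -0.95 on normal diet. The neighbouring complement regulators Cd59b and Cd59a fell by 1.54 and 1.03 on the log2 scale, and gave -1.36 and -0.98 on normal diet. A spot beside the Cd59b probe fell as well. Ehf, an epithelial transcription factor, fell by 2.93, but its second probe gave 0.67. Abtb2, the gene next to Cat, gave -0.37 on high-fat diet and -1.42 on normal diet. Strain background and loss of catalase cannot be told apart for these genes.

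Genes of other tissues were used to look for carry-over with the liver. All 6 skeletal muscle genes and the fat markers Adipoq and Lep were not well above background on either array. Of the pancreatic genes Cela1, an elastase, rose from -4.18 to -2.20, while Ctrb1 gave -0.34. Krt20, a gut keratin, was at least 2.25-fold higher (0.51 after normexp correction). Of 57 changed genes with a second probe above background on both arrays, 50 had the same sign on it and 24 also passed 2-fold. The 6300 measured probes with no gene name in the table used held 132 rises and 179 falls, or 4.94% in all, beside 4.1% of named genes. The split ran the other way from that of named genes, which held 373 rises and 236 falls.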

How the data were processed

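RNA from 4 male mouse livers or liver pools (wild type and catalase knockout, normal and high-fat diet) was measured on 1-colour 44K Agilent arrays, 1 array per group, all on 1 slide and in 1 scan. The authors extracted RNA with Trizol, per the labels' protocols, and deposited scanner tables of spot intensity made with Feature Extraction 11.5.1.1, per the file headers. The deposited gProcessedSignal is a background-subtracted intensity. GeneSpring GX 7.3 is named in the submitters' text. In the deposited series value table the column medians were 79.87, 75.87, 72.38 and 89.16 (wild type normal and high-fat diet, knockout normal and high-fat diet), and 99.7% of its probes lay within 1% of a constant ratio to the scanner intensity, so its scale was linear.

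Control spots and spots marked as outliers were left out, log2 intensity was averaged per probe, and each of the 39429 probes was set against the 75th percentile of its array. Between 60.3% and 63.9% of probes were well above background and 0 were saturated. Of the probes 27508 had 1 gene name, which gave 20886 genes; 5512 genes had more than 1 probe and the brightest was used, with the next as a second probe. A gene was tested if well above background on at least 1 array of the pair and called at 2-fold. For a gene above background on 1 array, the bright value was set against the dim probe's own signal or, where higher, the dimmest signal of any probe called well above background on that array. The ± is the scanner's error model. Alternatives were median and quantile scaling, cyclic loess, normexp (offset 50), the series value table, the mean of all probes, and other lines and filters. The scanner tables used here have no mean signal, so normexp used the median signal and background.

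Named genes were Cat; the 15 largest rises and 15 largest falls kept under 75th percentile, median and quantile scaling and normexp, without unnamed loci and clone names; the 5 largest bounds each way; set members of each list and up to 8 further per list by size; the 8 widest gaps between diets each way; and genes within 0.1 of the line. Some other list members are named for their known role, and were picked after their values were seen. The members and lists were chosen with earlier results of these data known. Promoter windows came from RefSeq (GRCm38.p6); the array design uses another build, so no gene coordinates were combined. The working of the 2-fold rule was checked on simulated data with known changes and scanner error only. The simulation held no spread between animals, so it cannot show how often the rule errs on these arrays. Software was Python 3.11.15, numpy 2.4.6, pandas 2.3.3, R 4.3.3 and limma 3.58.1.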

Additional observations from a re-analysis of the deposited data

Results flagged for a closer look

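The 14 genes that rose on high-fat and fell on normal diet were 3.75% of the rises on high-fat diet. Over all genes tested 2.5% fell on normal diet. The 15 that did the reverse were 6.36% of the falls on high-fat diet, and over all genes tested 1.4% rose on normal diet. Of these genes 10 belong to those chosen for naming and are given here. In each the knockout array moved one way against the wild type on high-fat diet and the other way on normal diet, by 2-fold or more each time. With 1 array per group the difference was not tested for any of them. Marco, the macrophage scavenger receptor, gave 2.63 on high-fat diet and -1.18 on normal diet, and Lpl, the lipoprotein lipase, gave 1.25 and -1.27. Xlr4a gave 1.79 and -2.53, and Cib3, a calcium-binding protein, gave 1.03 and -1.72. Krt20, a gut keratin, was at least 2.25-fold higher on high-fat diet and at least 10.5-fold lower on normal diet.

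In the opposite direction, Hamp2, a hepcidin, gave -1.10 on high-fat diet and 3.68 on normal diet. Serpinb1a gave -1.32 and 1.32, and the clock gene Ciart gave -1.11 and 1.37. Bst1 gave -2.98 and 1.73, although its second probe gave -0.44 on high-fat diet. Lypd8, of the Ly6 family, gave -2.06 on high-fat diet and was at least 2.09-fold higher on normal diet; a spot beside its probe was lower as well on high-fat diet.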

How the results depend on the processing

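The counts of 373 rises and 236 falls on high-fat diet became 142 and 122 after normexp background correction, which also gave 102 rises and 143 falls on normal diet in place of 206 and 368. With no filter on dim probes they were 855 and 541, at a 1.5-fold line 1090 and 647, and at a 3-fold line 111 and 90. Requiring both arrays above background left 145 falls. Median and quantile scaling, cyclic loess, the series value table and the mean of all probes kept each of the 4 counts within 1.5 times, and gave 327 to 372 rises and 220 to 259 falls on high-fat diet. Rises made up 61.2% of calls, and 53.8% to 61.5% under the other scalings and corrections; median scaling moved the median of all genes to -0.10. The same genes were called in 42.7% of cases after normexp, 83.9% with the mean of probes and at least 90.5% under the others. Of 110 list counts, normexp lowered 23 and raised 3 by more than 1.5 times, quantile scaling lowered 7 and raised 9, and cyclic loess lowered 6 and raised 2. Values of 1084 genes moved beyond the scanner error in 155 cases under normexp, 71 under quantile scaling, 59 with the mean of probes and 21 under loess. An alternative chosen after seeing the data left out genes with a neighbouring spot called the same way, and gave 306 rises and 169 falls. No called gene chosen for naming reversed under these settings, but second probes opposed the calls of Relb (-0.12), Ehf (0.67), Cd34 (-0.03), Npas3 (-0.34) and Tcl1b5 (0.27), and the medians of ribosomal proteins and mitochondrial oxidation turned to 0.02 and 0.03 under loess. No paired analysis was possible because there was 1 array per group, and for the same reason no replicate could be left out. Sizes of dim probes are limited by their nearness to the background.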
